A study of Mus musculus with 170 samples.

Results

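The nuclear genes of the mitochondrial respiratory chain and of the ATP synthase were followed in lung and heart tissue of female mice of CD-1, an outbred stock, after biomass smoke condensate reached the airways. Symbols were taken by name: those beginning Nduf, Uqcr, Cox4 to Cox8 or Atp5, the 4 Sdh subunits, and Cyc1 and Cycs. Of 92 matching symbols among 21450 in the table, 87 averaged at least 1 CPM (counts scaled to a common library total) in lung or heart and are the genes described here. They comprised 34 genes named as complex I subunits, 7 complex I assembly factors, 3 subunits of complex II, 9 of complex III, 17 of complex IV, 16 of ATP synthase, and cytochrome c, with all probes of a symbol summed. Just outside the level threshold were Ndufaf2 at 0.883 CPM, Cox7b2 at 0.852 CPM and Ndufa3 at 0.819 CPM in the tissue where each was higher, with Sdhb at 0.0257 CPM and Cox8c at 0.00771 CPM. Just inside were Cox7a2 at 1.52 CPM, Ndufaf7 at 2.14 CPM and Ndufaf8 at 4.22 CPM. Cox7a2 and Ndufaf7 passed in heart alone, with 0.227 and 0.965 CPM in lung.

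Animals received 50 µL of saline with 2 mg/mL particulate matter by oropharyngeal aspiration, in which liquid placed in the throat is drawn into the lungs, and tissue was taken 4 or 24 h later. The particulate matter came from red oak, peat, pine needles, pine or eucalyptus, each burned flaming or smoldering, which gives 10 smokes, with lipopolysaccharide (LPS, a bacterial outer membrane component that drives inflammation) and saline as the other groups. Lung was measured in all 12 groups at both times, with 6 libraries a group and 4 for LPS, and heart at 24 h after red oak flame, peat flame, red oak smolder, peat smolder and saline, with 6 libraries a group. The labels give no age, and each library carries an animal number of its own that is shared only by the heart and the lung of that animal. In bulk tissue a smaller number of cells of a type and less RNA per cell cannot be told apart. The 170 libraries held 4426180 to 8046021 counts, with a median of 6587862. All 30 hearts were on plate 2, as were 53 of 70 lungs at 24 h, while 65 of 70 lungs at 4 h were on plate 1. The 5 lungs of 4 h on plate 2 were all from pine needles smolder. At 24 h all 6 lungs of that smoke were on plate 1, where most lungs of every other group were on plate 2. In lung, plate and pine needles smolder therefore cannot be fully told apart. Cardiac muscle markers summed to 42190 to 47780 CPM in saline hearts, and the 5 alveolar type 2 cell markers to 2.70 to 4.93 CPM there. At 24 h 6 lungs had fewer than 13000 genes detected, against a median of 15060 over all lungs at that time.

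Complexes I to IV pass electrons along the inner mitochondrial membrane to oxygen, with cytochrome c as the carrier between complexes III and IV, and ATP synthase uses the resulting proton gradient to make ATP. Most subunits are encoded in the nucleus, and a small set that includes several core subunits is encoded in mitochondrial DNA. Heart muscle is packed with mitochondria and uses muscle forms of a few complex IV subunits, such as Cox7a1 and Cox6a2, in place of the forms found in most tissues. The transcription factors NRF1, the ETS family member GABPA, and YY1 are known activators of many of these genes.

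Promoters are shown for 4 genes on which the results below turn, as the RefSeq sequence of mouse GRCm38.p6 from 250 bases before to 50 after the gene start, read along the strand of the gene. Ndufb8, an accessory subunit of the membrane arm of complex I, is at chr19:44555393-44555692 on the minus strand. Atp5l, subunit g of the membrane part of ATP synthase, is at chr9:44920693-44920992 on the minus strand. Cycs, somatic cytochrome c, is at chr6:50566520-50566819 on the minus strand, and Cox7a1, the muscle form of complex IV subunit VIIa, at chr7:30183921-30184220 on the plus strand. Capitals mark matches on either strand to NRF1 (GCGCNTGCG), ETS/GABPA (CCGGAAG) or YY1 (AAGATGG).
Ndufb8: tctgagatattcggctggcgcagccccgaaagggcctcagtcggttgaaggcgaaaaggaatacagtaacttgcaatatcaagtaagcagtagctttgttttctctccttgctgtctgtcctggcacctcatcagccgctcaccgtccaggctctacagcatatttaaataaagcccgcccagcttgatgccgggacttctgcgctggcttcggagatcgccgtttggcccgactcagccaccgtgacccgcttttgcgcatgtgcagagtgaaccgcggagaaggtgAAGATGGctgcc
Atp5l: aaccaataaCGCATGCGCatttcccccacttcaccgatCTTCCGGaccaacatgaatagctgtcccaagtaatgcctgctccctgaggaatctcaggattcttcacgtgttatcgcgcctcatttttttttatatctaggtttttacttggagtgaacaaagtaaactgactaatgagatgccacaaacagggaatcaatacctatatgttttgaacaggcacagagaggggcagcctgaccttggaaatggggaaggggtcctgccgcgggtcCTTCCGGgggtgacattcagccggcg
Cycs: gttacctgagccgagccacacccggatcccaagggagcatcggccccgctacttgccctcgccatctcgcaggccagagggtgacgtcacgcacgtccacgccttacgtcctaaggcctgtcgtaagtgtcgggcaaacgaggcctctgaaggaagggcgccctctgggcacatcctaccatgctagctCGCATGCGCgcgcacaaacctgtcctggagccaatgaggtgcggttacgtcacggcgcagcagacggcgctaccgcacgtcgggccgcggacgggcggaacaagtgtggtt
Cox7a1: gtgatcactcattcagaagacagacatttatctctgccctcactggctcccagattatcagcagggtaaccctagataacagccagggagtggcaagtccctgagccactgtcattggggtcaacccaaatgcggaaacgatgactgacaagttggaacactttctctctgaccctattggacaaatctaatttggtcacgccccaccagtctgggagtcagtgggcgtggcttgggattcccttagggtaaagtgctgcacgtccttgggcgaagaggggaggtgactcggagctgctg
Atp5l holds 1 NRF1 and 2 ETS matches, Cycs an NRF1 match, Ndufb8 a YY1 match, and Cox7a1 none of the 3 and no match to the MEF2 letters CTAAAAATA. Promoters were listed for 71 of the 87 genes, 76 promoters in all. The NRF1 letters were in 27 of them (35.5%), against 6.31% of all 32851 mouse promoters of the same length. The ETS letters were in 22.4% against 8.86%, the YY1 letters in 13.2% against 6.34%, and the MEF2 letters in 0 of 76 against 0.517%. No 2 matches overlap in these 4 windows, and a match describes the window and not a bound site.

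In saline animals at 24 h, heart and lung of the same 6 mice were compared first, to show how far the 2 tissues differ before any smoke. The 87 genes took 10.3% ± 1.11 of heart counts and 1.15% ± 0.158 of lung counts (SD, n = 6 each). Of 86 genes tested, 79 were higher in heart and 3 were lower (edgeR quasi-likelihood test, Benjamini-Hochberg adjusted p under 0.05 over 11821 genes). The genes called higher include Ndufaf7, which met the level threshold only in heart. Over all genes tested, 34.8% were higher and 41.7% lower in heart. The median log2 difference of the 86 was 3.96, against -0.189 over all genes, with a range of -2.44 to 8.61. Levels below are CPM scaled with TMM (trimmed mean of M values) factors within each fit, so the same hearts have other values in the comparison with lung than among hearts. They are not compared between genes, because each gene is read by its own probes.

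**Figure D1:**
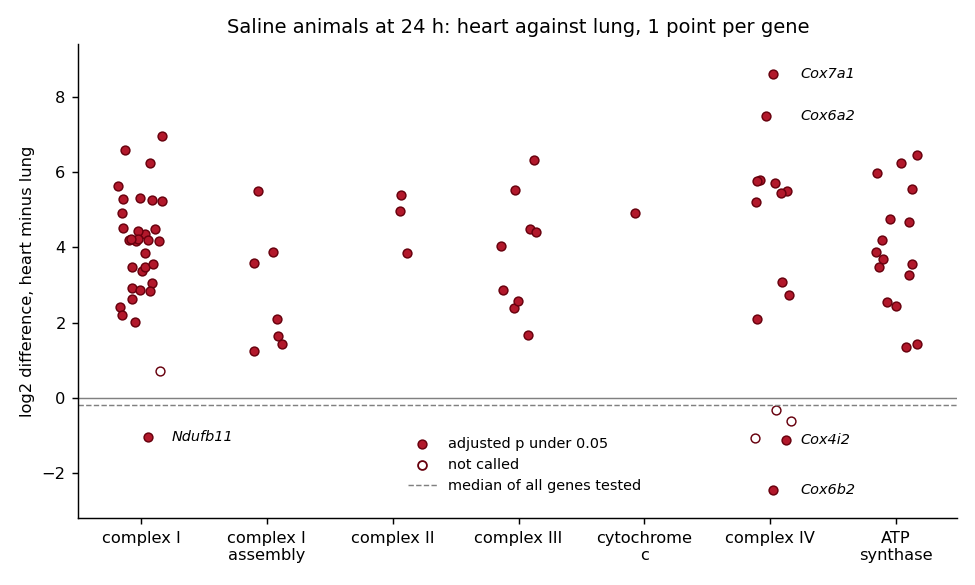
Log2 difference between heart and lung of saline animals (y axis, heart minus lung) for 86 genes by complex (x axis), 1 point per gene. Filled points have an adjusted p under 0.05, and the dashed line is the median of all genes tested (-0.189). Cox7a1 is the topmost point at 8.61, and Cox6b2 the lowest at -2.44.

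The muscle forms of complex IV subunits stood at the top. Cox7a1 had 968, 1416 and 2396 CPM in hearts (lowest, median and highest of 6), against 1.98, 3.66 and 5.92 CPM in lungs, a log2 difference of 8.61 ± 0.40 (SE, adjusted p = 2.26e-10). Cox6a2, the muscle form of subunit VIa, had 112.2, 196 and 306 CPM in hearts, against 0.371, 1.11 and 1.63 CPM in lungs, a log2 difference of 7.49 ± 0.39 (adjusted p = 5.63e-10). Every heart lay above every lung for both. Its counterpart Cox6a1, the form of most other tissues, had a log2 difference of -0.32 with an adjusted p of 0.32. Cox7a2, the non-muscle counterpart of Cox7a1, was too low to be tested here.

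Other isoforms ran the opposite way. Cox6b2, known as the testis form of subunit VIb, had 2.51, 4.47 and 6.85 CPM in hearts, against 14.7, 21.4 and 39.9 CPM in lungs (log2 difference -2.44 ± 0.32, adjusted p = 6.5e-06). Cox4i2, a form of subunit IV known from rodent lung, had 6.76, 14.1 and 17.6 CPM in hearts, against 18.5, 25.1 and 43.2 CPM in lungs (-1.12 ± 0.30, adjusted p = 0.00313). For both genes all 6 hearts lay below all 6 lungs, while their paralogues Cox6b1 and Cox4i1 were higher in heart by 2.10 and 3.09 on the log2 scale. Ndufb11, an accessory complex I subunit, was the third gene lower in heart (-1.05 ± 0.41, adjusted p = 0.0293), with 20.9 to 29.1 CPM in hearts and a lowest and median value of 18.1 and 42.2 CPM in lungs, and there the tissues overlapped. With the animal number as a block, which pairs the tissues of a mouse, Ndufb11 did not pass (-0.72, adjusted p = 0.0965). Cox8a, the common form of subunit VIII, had a difference of -1.06 ± 0.48 that did not pass (adjusted p = 0.0539), and Ndufa4l2, a paralogue of the complex IV subunit Ndufa4, had -0.61 (adjusted p = 0.114), where Ndufa4 itself was higher in heart by 5.70. Cox5a, which has a single form, was higher by 5.78 ± 0.24, and Cox7a2l, which helps join complexes III and IV, by 2.74 ± 0.40.

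Complex I was higher in heart for 32 of 34 genes, with a median log2 difference of 4.18. Ndufs8, a core iron-sulfur subunit, differed by 6.95 and Ndufb10, an accessory subunit, by 6.58. Ndufs1, the largest core subunit, had 68.7, 80.5 and 91.9 CPM in hearts, against 7.72, 13.1 and 29.1 CPM in lungs (2.40 ± 0.30), and Ndufv1, which binds NADH, differed by 4.44 ± 0.19. Both were above every lung in every heart. Ndufab1, the mitochondrial acyl carrier protein that is also a complex I subunit, differed by 4.92, and Ndufa2 was the 1 complex I gene not called (0.70, adjusted p = 0.0901), though it passed with the block (0.90, adjusted p = 0.0354). All 7 assembly factors were higher in heart, with a smaller median difference of 2.10, and with the block Ndufaf7 did not pass (1.36, adjusted p = 0.0936). Ndufaf7 entered the set only through its heart level (0.965 CPM in lung), so its direction is not independent of the selection.

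In complexes II and III, cytochrome c and ATP synthase every gene tested was higher in heart. All 3 complex II genes were higher, with a median difference of 4.95, and Sdha, the flavoprotein that oxidises succinate, differed by 3.85. All 9 complex III genes were higher (median 4.03), among them Cyc1, the cytochrome c1 that hands electrons to cytochrome c, with 1176, 1399 and 1961 CPM in hearts, against 24.5, 34.1 and 39.95 CPM in lungs (5.52 ± 0.22, adjusted p = 6.1e-11). The Rieske iron-sulfur protein Uqcrfs1 differed by 2.85, the core protein Uqcrc1 by 2.58, and the small subunit Uqcr11 by 1.68, where 3 of 6 hearts lay above the highest lung. Cycs differed by 4.90 ± 0.26. All 16 ATP synthase genes were higher (median 3.78), from Atp5s, known as coupling factor B, at 1.36 ± 0.33 (adjusted p = 0.00386) to Atp5g1 at 6.45. Atp5g1, Atp5g2 and Atp5g3 encode the same mature c-ring protein, and their differences were 6.45, 1.42 and 3.89. The catalytic head subunits Atp5a1 and Atp5b differed by 3.49 and 4.67.

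Among genes outside the rule, all 13 citric acid cycle genes and all 7 mitochondrial carriers tested were also higher in heart, with median log2 differences of 4.54 and 3.81. Of 32 other assembly factors tested, 26 were higher and 2 lower, and of 16 regulators of mitochondrial biogenesis 12 were higher and 3 lower. Of 8 mitochondrially encoded genes 7 were higher. TMM factors were 0.723 to 0.834 in these hearts and 0.951 to 1.49 in these lungs. With library totals alone 76 genes were higher and 6 lower, with a median of 3.28 for the 86 and -0.908 for all genes, and Atp5s no longer passed (adjusted p up to 0.112 over the alternatives). Probe by probe, 90% of 120 probes tested were higher in heart and 5% lower, and the probes of 24 of 25 genes with several probes had the same sign. The exception was Ndufs7, called higher when summed, whose probes stood at -1.79, -1.11 and 2.54.

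Cox7a1 and Cox6a2 were detected at low levels in lungs, together with cardiac muscle markers, 10 of which summed to 98.9, 575 and 2120 CPM (lowest, median and highest of 140 lungs). Across lungs the marker sum correlated with Cox7a1 (r = 0.362, rho = 0.432) and with Cox6a2 (r = 0.473, rho = 0.48), with permutation and adjusted p of 1e-05 for each of these 2 relations, the smallest that 100000 permutations can give. Without the 2 lungs farthest from the median marker sum, r was 0.372 and 0.496. Within the 65 lungs of 4 h on plate 1, r was 0.515 for Cox7a1 and 0.599 for Cox6a2. Within the 53 lungs of 24 h on plate 2 it was 0.033 and 0.211 (permutation p = 0.81 and 0.13), and within the 17 of 24 h on plate 1 it was 0.035 and 0.43 (permutation p = 0.89 and 0.084), so neither relation passed within the 24 h batches. Whether the relation differs between batches was not tested. Whether heart tissue in the lung samples has a part in these levels was not tested.

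Hearts after smoke were compared with saline hearts at 24 h. After red oak flame 54 of 87 genes were lower and 0 were higher (edgeR, adjusted p under 0.05 over 11179 genes), against 6.69% of all genes lower, and after peat smolder 20 were lower and 0 higher, against 1.91% of all genes. The median log2 change of the 87 was -0.529 after red oak flame (all genes 0.031) and -0.396 after peat smolder. After peat flame 0 genes were called by edgeR or by DESeq2, where edgeR called 0.0447% of all genes. The median was -0.247, and 26 of 87 were at an unadjusted p under 0.05. Shares of all genes called, here and below, are at the adjusted threshold. The share of all genes at an unadjusted p under 0.05 is not given, so counts at that level have no background beside them. Without the 7 hearts in which the atrial gene Myl7 reached 100 CPM, 44 were at an unadjusted p under 0.05 (median -0.339), and with detected genes as a covariate 1 was (median -0.041), with 0 called in both. After red oak smolder 0 were called by either tool, where edgeR called 0% of all genes. The median was -0.065, and 1 gene was at an unadjusted p under 0.05. The 4 comparisons share their 6 saline hearts.

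The 87 genes together took 8.21% ± 0.76 of counts in red oak flame hearts, 8.73% ± 0.79 in peat smolder hearts, 9.34% ± 0.84 in peat flame hearts and 10.3% ± 0.96 in red oak smolder hearts, against 10.3% ± 1.11 in saline hearts (SD, n = 6 each). All 6 red oak flame hearts lay below all 6 saline hearts, as did 4 of 6 after peat smolder, 3 of 6 after peat flame and 1 of 6 after red oak smolder. By complex, the share after red oak flame as a percent of the saline mean was 73.7% for complex IV, 75.5% for cytochrome c, 77.4% for complex III, 79.5% for complex I, 82.5% for ATP synthase, 86.95% for the assembly factors and 89.8% for complex II. The 8 mitochondrially encoded transcripts on the panel took 1.46% ± 0.32 of counts after red oak flame and 1.70% ± 0.23 after peat smolder, against 2.11% ± 0.22 in saline hearts.

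**Figure D2:**
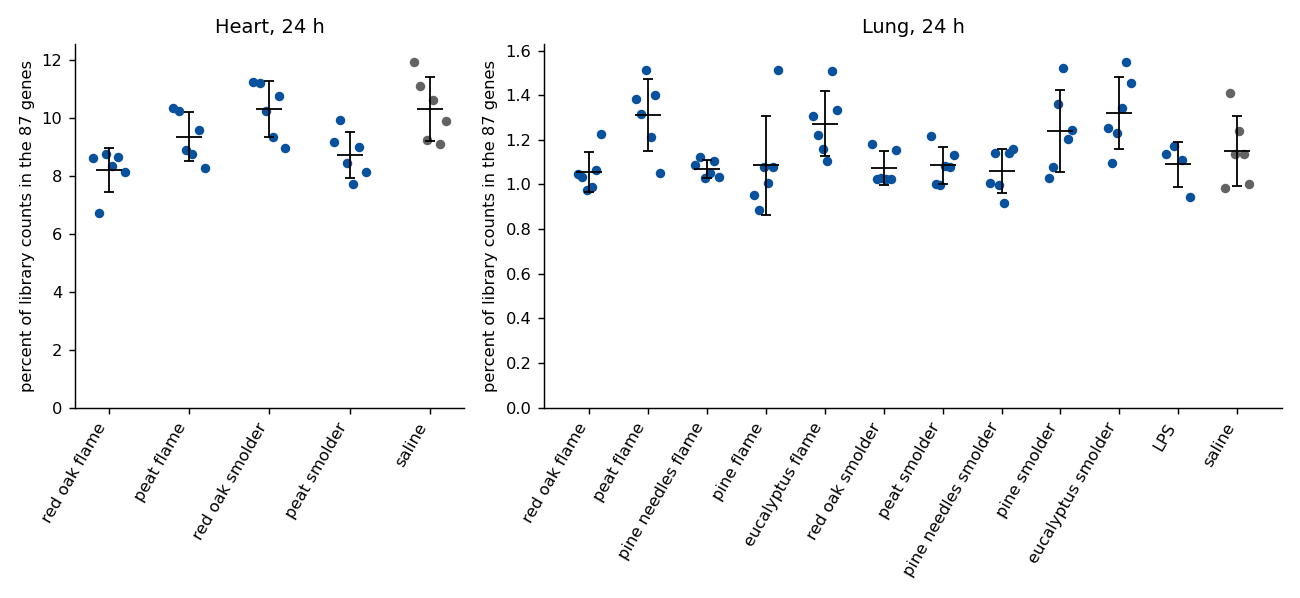
Percent of library counts in the 87 genes at 24 h (y axis, starting at 0 and on its own scale in each panel) for hearts (left) and lungs (right) by group, 1 point per library, with mean and SD as bars. Red oak flame hearts sit between 6.73% and 8.76%, all below the saline hearts at 9.09% to 11.9%, and lungs lie between 0.888% and 1.55%.

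Other measures were set beside these results for red oak flame, peat smolder and saline hearts. Marker and detected-gene ranges of the other 2 smokes are not given here, so whether they follow the calls is not shown. The 3 endothelial markers summed to 83.8 to 124.2 CPM after red oak flame and 86.8 to 117.9 CPM after peat smolder, against 57.4 to 78.9 CPM in saline hearts, with no overlap, and 5 macrophage markers to 13.5 to 26 and 13.1 to 25.2 CPM, against 8.50 to 16.2 CPM. Cardiac muscle markers summed to 43490 to 45270 CPM after red oak flame and 43630 to 47490 CPM after peat smolder, against 42190 to 47780 CPM in saline hearts. That sum includes the atrial gene Myl7, at 4908 CPM in 1 red oak flame heart and 686 and 5042 CPM in 2 peat smolder hearts. In saline hearts Myl7 was at most 7.77 CPM. A sum without Myl7 is not given here, so the ranges do not show unchanged ventricular muscle. Genes detected per library numbered 13446 to 14329 after red oak flame and 13604 to 13949 after peat smolder, against 13187 to 13503 after saline. With that number as a covariate, added after seeing the data, 0 genes were called after either smoke, and the red oak flame median was -0.202. Of all 11179 genes 3 were then called after red oak flame and 0 after peat smolder, against 1344 and 480 without the covariate (either direction). Myl7, the atrial light chain, reached at least 100 CPM in 7 of 30 hearts, 1 after red oak flame, 3 after peat flame, 1 after red oak smolder, 2 after peat smolder and 0 after saline. Without these 7 hearts 38 genes were lower after red oak flame (median -0.45) and 1 after peat smolder (median -0.332). Of all 11339 genes then tested, 730 and 57 were called in either direction, so calls fell over all genes too. With library totals in place of TMM factors, 41 genes were lower after red oak flame and 14 after peat smolder, and the median of all genes after red oak flame was 0.212. Of all genes 1932 and 717 were then called in either direction. The part of cell composition, atrial tissue and library complexity in the result was not tested.

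**Figure D3:**
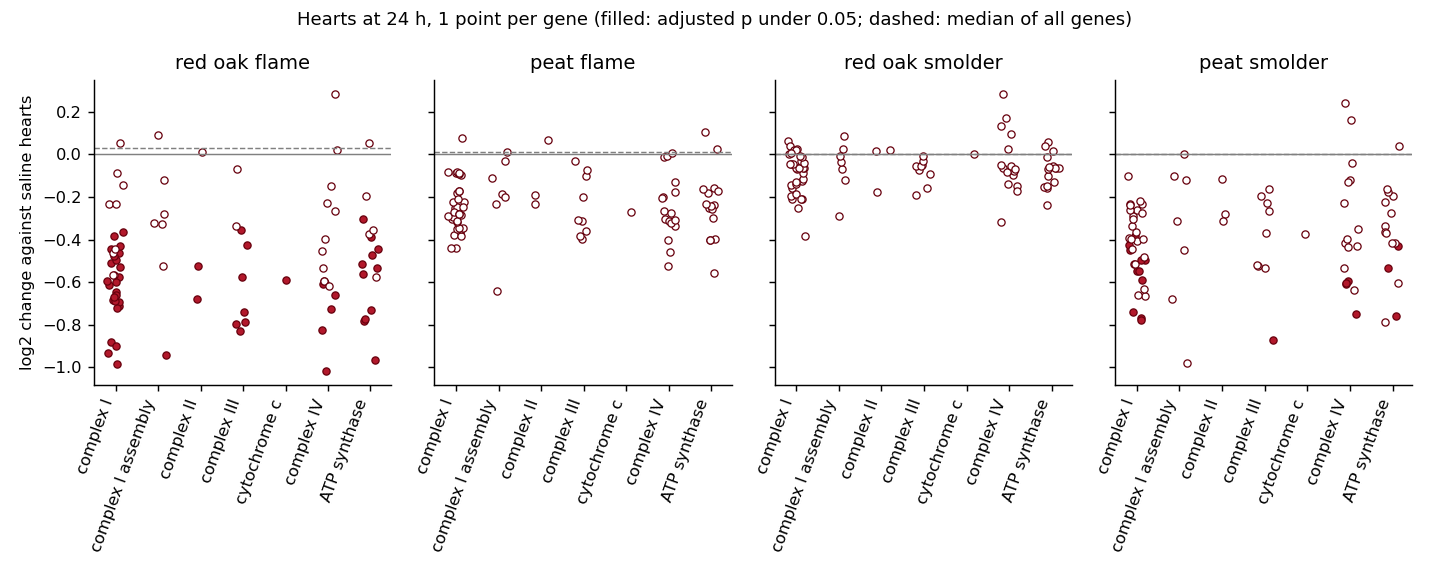
Log2 change against saline hearts at 24 h (y axis) for 87 genes by complex (x axis) after each of 4 smokes, 1 point per gene, filled where the adjusted p is under 0.05. The dashed line is the median of all genes. Filled points number 54 after red oak flame, 20 after peat smolder and 0 after the other smokes.

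Complex I gave 25 of its 34 genes lower after red oak flame and 12 after peat smolder. Ndufb8 had 143, 202 and 245 CPM after red oak flame (lowest, median and highest), against 257, 361 and 501 CPM after saline, a log2 change of -0.88 ± 0.15 (adjusted p = 0.00103), and all 6 exposed hearts lay below all saline hearts. After peat smolder it had 177, 251 and 291 CPM, 4 of 6 below all saline hearts (-0.59 ± 0.15, adjusted p = 0.0261). Other accessory subunits with the smallest p after red oak flame were Ndufb2 (-0.90 ± 0.19), Ndufa1 (-0.58 ± 0.12), Ndufb4 (-0.93 ± 0.20) and Ndufb7 (-0.71 ± 0.16, adjusted p = 0.0056), and in the first 3 no exposed heart reached the saline range. Among the core subunits that carry out electron transfer, named here after their values were seen, Ndufs3, Ndufs7, Ndufs8 and Ndufv2 fell after red oak flame. Ndufs1 had 61.5, 67.2 and 85.3 CPM, against 57.5, 67.2 and 77.03 CPM in saline hearts (0.05 ± 0.13), and Ndufv1 changed by -0.23 without passing. Of the 7 assembly factors 1 was called lower, Ndufaf6 at -0.94 ± 0.22.

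After peat smolder the complex I genes with the smallest p were Ndufa2, Ndufb11 and Ndufs7. Ndufa2, a small accessory subunit, had 18.0, 27.6 and 33.4 CPM, against 35.1, 41.1 and 57.9 CPM after saline (-0.77 ± 0.16, adjusted p = 0.0083). Ndufb11 had 9.60, 12.8 and 15.8 CPM, against 17.5, 20.9 and 24.4 CPM (-0.74 ± 0.16, adjusted p = 0.0116). Ndufs7, a core iron-sulfur subunit, had 378, 476 and 521 CPM, against 607, 662 and 703 CPM (-0.52 ± 0.12, adjusted p = 0.018). For these 3 genes all exposed hearts lay below all saline hearts. Ndufb11 was also the 1 gene of the 20 not called after red oak flame (-0.45 ± 0.16, adjusted p = 0.0651). The other 19 were called after both smokes, which is 35.2% of the red oak flame list and 95% of the peat smolder list. Both comparisons use the same saline hearts, which by itself raises such an overlap. The overlap over all genes is not given here, so this one is not shown to be particular to these genes.

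After red oak flame 2 of 3 complex II genes were lower. Sdhc and Sdhd, the membrane anchors of complex II, fell by 0.53 and 0.68 on the log2 scale, while Sdha had 1184, 1377 and 1866 CPM, against 1174, 1404 and 1895 CPM in saline hearts (0.01 ± 0.14). In complex III 7 of 9 genes were lower after red oak flame. Uqcrh, the hinge protein bound to cytochrome c1, had 1053, 1549 and 1685 CPM, against 1888, 2578 and 3485 CPM after saline (-0.83 ± 0.16, adjusted p = 0.00221), with no overlap between the groups. Uqcrq and Uqcr11, also small subunits, changed by -0.74 ± 0.16 and -0.79 ± 0.17, and Cyc1 by -0.42 ± 0.14 (adjusted p = 0.0454). Uqcrc1 and Uqcrfs1 were not called, at -0.07 and -0.33. Uqcr10 was the 1 complex III gene called after peat smolder, with 78.3, 99.7 and 134.2 CPM, against 163, 175 and 237 CPM after saline (-0.87 ± 0.19, adjusted p = 0.0105).

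Cycs had 458, 645 and 747 CPM after red oak flame, against 768, 892 and 1228 CPM in saline hearts, with all exposed hearts below them (-0.59 ± 0.14, adjusted p = 0.00689). Complex IV had 7 of 17 genes lower after red oak flame and 4 after peat smolder. Cox7a1 had 359, 662 and 761 CPM after red oak flame, against 811, 1185 and 1995 CPM after saline (-1.02 ± 0.20, adjusted p = 0.0029), again with no overlap. After peat smolder it had 576, 733 and 1067 CPM, with 5 of 6 hearts below all saline hearts (-0.75 ± 0.20, adjusted p = 0.0335). Cox4i1, the common form of subunit IV, changed by -0.73 ± 0.15 after red oak flame and -0.60 ± 0.15 after peat smolder, and Cox6b1, the common form of subunit VIb, by -0.61 ± 0.14 after each. Cox6a2 had 75.1, 104.4 and 171 CPM after red oak flame, against 93.97, 164 and 255 CPM in saline hearts, and did not pass (-0.62 ± 0.26, adjusted p = 0.109). Cox5a was not called after either smoke, nor were Cox4i2, Cox6b2 and Cox8a. Counts for these last were low, with means of 11.1, 3.17 and 3.74 CPM over all hearts.

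ATP synthase had 11 of 16 genes lower after red oak flame and 3 after peat smolder. Atp5l had 187, 218 and 308 CPM after red oak flame, against 306, 365 and 500 CPM after saline, with 5 of 6 exposed hearts below all saline hearts (-0.78 ± 0.14, adjusted p = 0.00157). After peat smolder it had 186, 226 and 287 CPM, with 6 of 6 below (-0.76 ± 0.14, adjusted p = 0.00455). Atp5j2, subunit f of the membrane part, changed by -0.73 ± 0.16 after red oak flame. Atp5c1, Atp5d and Atp5e of the catalytic part were also called lower, and Atp5k and Atp5g2 of the membrane part were not called. Atp5a1, a head subunit, had 3264, 3768 and 4312 CPM after red oak flame, against 3188, 3556 and 4412 CPM in saline hearts (0.05 ± 0.10), and Atp5b changed by -0.20 ± 0.09 without passing (adjusted p = 0.164).

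**Figure D4:**
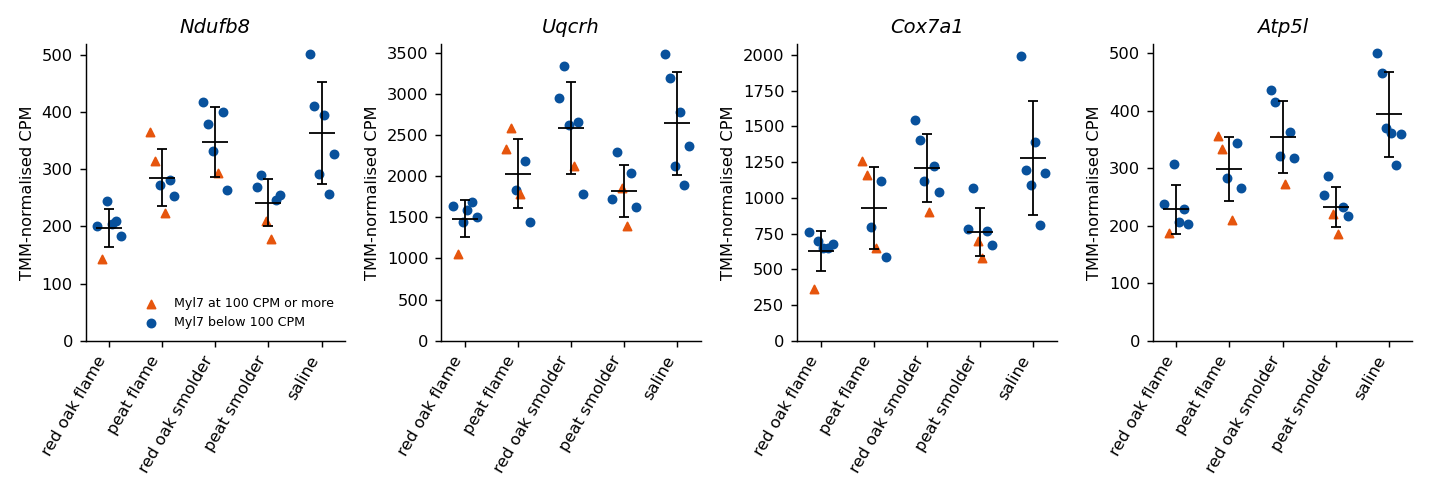
TMM-normalised CPM (y axes, starting at 0) of Ndufb8, Uqcrh, Cox7a1 and Atp5l in hearts at 24 h by group, 1 point per library, with mean and SD as bars. Triangles are the 7 hearts with Myl7 of at least 100 CPM. For Ndufb8, Uqcrh and Cox7a1 all 6 red oak flame hearts lie below all 6 saline hearts.

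Single libraries moved these counts. After red oak flame between 34 and 59 genes were lower as each saline or red oak flame heart was left out, with 34 without saline 1. The 12 red oak flame genes with the smallest p were lost under 1 of 20 alternatives each, the one with detected genes as a covariate. After peat smolder 6 were lower without saline 1, 2 or 4 or without peat smolder 3, 5 without peat smolder 4, 9 without peat smolder 1 or 6, 32 without saline 5 and 35 without peat smolder 2. DESeq2 gave 36 after peat smolder, and 13 were called with no filter on low counts. Of all genes 757 and 322 were called there, against 480 in the main fit.

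Other genes of the pathway in these hearts were counted from lists of known genes. Of 33 assembly factors outside the rule 15 were lower after red oak flame, with a median of -0.354, and 5 after peat smolder. Pet100, a complex IV assembly factor, had 38.8, 47.5 and 52.4 CPM after red oak flame, against 65.7, 91.7 and 117.1 CPM in saline hearts (-0.94 ± 0.18, adjusted p = 0.00211), with no overlap. Uqcc2, a complex III assembly factor, changed by -0.74 ± 0.16 after red oak flame and -0.84 ± 0.16 after peat smolder, and Cox14, which acts in complex IV assembly, by -0.65 ± 0.15 after red oak flame. Of 13 citric acid cycle genes 1 was lower after each smoke, Suclg1, a succinate-CoA ligase subunit, at -0.36 ± 0.11 after red oak flame and -0.41 ± 0.11 after peat smolder. Of 16 biogenesis regulators, which include Ppargc1a, Nrf1 and Tfam, and of 7 carriers 0 were called by edgeR after either smoke, with 2 regulators and 4 carriers at an unadjusted p under 0.05 after red oak flame. Of 8 mitochondrially encoded genes 6 were lower after red oak flame (median -0.676) and 2 after peat smolder (median -0.455).

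The 2 burn phases were then set against each other in heart. Between red oak flame and red oak smolder 43 genes differed, all lower after red oak flame, with a median of -0.497, where 8.69% of all genes were called in either direction. Ndufb8 had 143, 202 and 245 CPM after red oak flame, against 263, 355 and 418 CPM after red oak smolder (-0.82 ± 0.15, adjusted p = 0.00373), with no overlap, and Cox7a1 changed by -0.94 ± 0.20 and Uqcrh by -0.80 ± 0.16. The count was 17 without red oak flame 2, 25 without red oak smolder 1 and 16 without red oak smolder 2, and 1 with detected genes as a covariate. With that covariate 32 of all genes were called, against 971 without it. Between peat flame and peat smolder 0 genes were called by edgeR or DESeq2, where edgeR called 0.00895% of all genes. There 12 genes were at an unadjusted p under 0.05, with a median of 0.14. Without the hearts with atrial Myl7, 3 of them after peat flame and 2 after peat smolder, that median was -0.006. Averaged over both fuels, flaming against smoldering called 0 genes by edgeR, where 0.0358% of all genes were called, and 1 by DESeq2. The median was -0.17, and 28 genes were at an unadjusted p under 0.05. The red oak phase difference minus the peat phase difference, a comparison added after seeing the data, was called for 20 genes, all below 0, where 2.39% of all genes were called. It was called for 1 gene without the hearts with atrial Myl7 and for 0 with detected genes as a covariate. Of all genes 22 and 17 were called there, against 267 in the main fit.

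The same smokes were compared between heart and lung of the same animals at 24 h. No gene of the 87 had a smoke effect in heart that differed from that in lung by edgeR, over the mean of the 4 smokes, red oak flame or peat smolder. Of all 13746 genes 0, 14 and 0 were called in either direction, and the share called lower for red oak flame was 0%. The median differences, heart effect minus lung effect, were -0.276, -0.424 and -0.282, with 3, 13 and 6 genes at an unadjusted p under 0.05. DESeq2 called 0, 9 and 0 of the 87, and 17, 363 and 0 of all genes. Uqcrh differed by -0.85 ± 0.26 for red oak flame (adjusted p = 0.163), where lungs alone changed by 0.01 ± 0.17. A change particular to heart is therefore not shown.

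In lung, 1 gene of 86 tested was called after smoke at 4 h, Cyc1, in 2 of the 10 smokes. It had 35.2, 47.1 and 54.8 CPM after peat flame and 31.3, 51.6 and 70.99 CPM after eucalyptus flame, against 19.4, 27.9 and 40.2 CPM after saline, and 5 of 6 exposed lungs lay above all saline lungs in each case. It was higher by 0.70 ± 0.17 (adjusted p = 0.0252) after peat flame, where 0.29% of all 14458 genes were higher, and by 0.85 ± 0.17 (adjusted p = 0.00433) after eucalyptus flame, where 0.083% were. The peat flame call was lost without saline 2, 3 or 5 (adjusted p 0.096 to 0.16) and in a fit of 4 h alone (adjusted p = 0.0584), and the eucalyptus flame call with the size factors of DESeq2 (adjusted p = 0.0568). Median Cyc1 in the other 8 smokes was 37.2 to 48.9 CPM, and the groups are not shown to differ from those called.

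**Figure D5:**
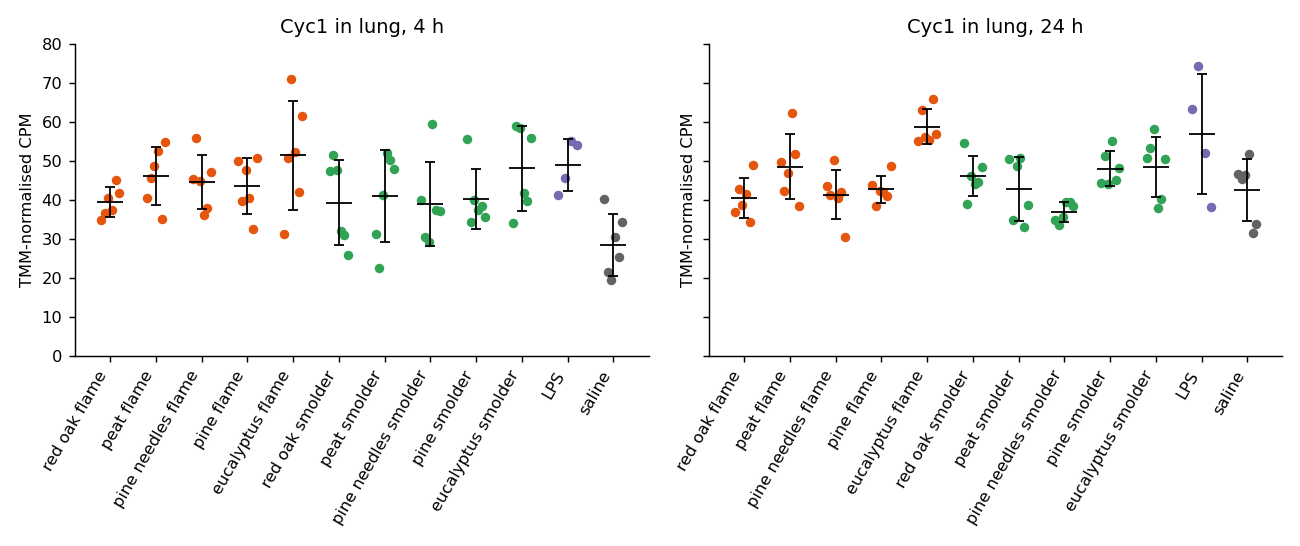
TMM-normalised CPM of Cyc1 (y axes, starting at 0) in lungs at 4 h (left) and 24 h (right) for 12 groups, 1 point per library, with mean and SD as bars. At 4 h the saline lungs lie lowest with a median of 27.9 CPM, against 47.1 CPM after peat flame and 51.6 CPM after eucalyptus flame. At 24 h the saline median is 45.8 CPM.

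Cyc1 was also higher after LPS at 4 h. It had 41.1 to 55.2 CPM in 4 LPS lungs, all above the saline lungs at 19.4 to 40.2 CPM (0.78 ± 0.19, adjusted p = 0.00143). Cycs had 57.99, 65.7 and 75.4 CPM after LPS, against 25.3, 36.4 and 43.2 CPM after saline (0.90 ± 0.30, adjusted p = 0.0403), again with no overlap. These 2 of 86 genes were called higher, where 5.48% of all genes were. The Cycs call was lost on leaving out any 1 of the 4 LPS lungs or saline 2, 3 or 5, and without the 6 lungs of few detected genes 5 genes were called. At 24 h LPS called 0 genes by edgeR, where 12.1% of all genes were called, and 15 were at an unadjusted p under 0.05. The count was 6 by DESeq2 and 13 without the 6 lungs of few detected genes. Without LPS lung 4 of 24 h, 7 were called, and without saline 2, 3 or 4 of 24 h, 2, 2 and 1. The LPS effect at 24 h minus that at 4 h called 0 genes by either tool, where edgeR called 0.581% of all genes. There 2 genes were at an unadjusted p under 0.05.

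Averaged over the 5 fuels at 4 h, flaming against smoldering gave 7 genes higher and 1 lower, where 1.72% of all genes were higher and 0.671% lower. Cox4i1 had 83.7, 126.1 and 276 CPM in flaming lungs, against 63.3, 92.6 and 135.9 CPM in smoldering lungs (0.54 ± 0.12, adjusted p = 0.0063), and 13 of 30 flaming lungs lay above every smoldering lung. The others were the complex III genes Uqcrq (0.38), Uqcr10 (0.44) and Uqcrfs1 (0.58), the complex I genes Ndufa11 (0.44) and Ndufa2 (0.64), and Atp5k, subunit e of ATP synthase (0.75, adjusted p = 0.0407). Ndufc2, an accessory complex I subunit, had 37.1, 63.3 and 107.8 CPM in flaming lungs, against 63.3, 94.7 and 184 CPM in smoldering lungs (-0.62 ± 0.13, adjusted p = 0.00218), with 15 of 30 flaming lungs below every smoldering lung. The count was 21 in a fit of 4 h alone, 22 without the lungs of few detected genes and 24 with detected genes as a covariate. At 24 h the same comparison called 0 genes by either tool, where edgeR called 0.111% of all genes, and 0 had an unadjusted p under 0.05.

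Differences among the 10 smokes at 4 h were called for 0 genes by edgeR and 4 by DESeq2, where 0.609% of all genes were called. Against saline at 4 h, 0 genes were called by edgeR or DESeq2 after the other 8 smokes, with 1 to 9 at an unadjusted p under 0.05. The share of all genes called there was 0% after red oak, peat, pine and eucalyptus smolder, 0.0207% after pine needles smolder, 0.0138% after red oak flame, 0.0277% after pine needles flame and 0.00692% after pine flame. With detected genes as a covariate the calls over the 10 smokes numbered 25, with each time fitted alone 11, and without the lungs of few detected genes 5, against 2 as given.

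At 24 h 1 gene was called after the 10 smokes, Ndufab1 after red oak flame. It had 20.9, 92.9 and 108.8 CPM, against 118.4, 132.5 and 151 CPM after saline (-0.68 ± 0.15, adjusted p = 0.00488), with all 6 exposed lungs below all saline lungs, where 0.194% of all genes were lower. Red oak flame 6, the lung at 20.9 CPM, was among those with few detected genes, and without those 6 lungs the change was -0.50 (adjusted p = 0.256). The other 9 smokes called 0 genes by edgeR or DESeq2, with 1 to 23 at an unadjusted p under 0.05. The share of all genes called there was 0.0692% after peat flame, 0.0207% after pine needles smolder, 0.00692% after red oak smolder, peat smolder, pine needles flame and eucalyptus flame, and 0% after pine flame, pine smolder and eucalyptus smolder. DESeq2 called 7 genes after red oak flame, and over the 10 smokes 12 calls were made without the lungs of few detected genes and 0 with 24 h fitted alone.

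In those 6 lungs several of the genes stood far from the rest in TMM-scaled CPM. Ndufa1 lay at 3607 to 16100 CPM there, against 417 to 4161 CPM in the other 64 lungs of 24 h. Uqcr11 lay at 2062 to 10080 CPM against a highest value of 1958 CPM, and Cox7c, a small complex IV subunit, at 202 to 920 CPM against 37.9 to 183 CPM. Cox6b1 lay at 2236 to 6537 CPM against 220 to 2585 CPM. The libraries were red oak flame 6, pine flame 6, eucalyptus flame 5, peat flame 3, pine smolder 4 and eucalyptus smolder 5, all on plate 2, with 9886 to 12545 genes detected.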

How the data were processed

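The authors deposited whole-number counts per probe for 170 libraries in 1 table; libraries used the TempO-Seq platform and single-end sequencing per the labels' protocols, which also name a QuantSeq kit, so the chemistry is stated in 2 ways. Bowtie and DESeq2 are named per the submitters' processing notes; their versions, the genome build and any probe filters are unstated in those sources. Counts of 30146 probe rows were summed to 21450 symbols. Lungs (140) were fitted by group and plate, hearts (30) by group, saline heart against lung in 12 libraries, and both tissues together in 60, with edgeR 4.0.16 in R 4.3.3 (TMM factors, filterByExpr, robust quasi-likelihood test, Benjamini-Hochberg adjustment over all genes, threshold 0.05). DESeq2 1.42.0 was an alternative. SE is the log2 change over the square root of F. The procedure was tested on simulated data.

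The genes and lists were chosen with earlier results of these data known, among them the lists of assembly factors, regulators and markers. Genes named were a set list of core subunits and isoforms, up to 12 called genes with the smallest p in each comparison, and the 5 highest and 5 lowest differences between heart and lung; any other gene named was chosen after its values were seen. Heart and lung of an animal are paired by the animal number in the labels; same-animal correlations of deviations were -0.236 to 0.263 over the 5 exposures. All pairs of libraries within a group differed (fewest 13635 symbols with unequal counts over 417 pairs). Totals per library, 4426180 to 8046021 counts, bound the precision of low genes; intervals given as SE cover the spread between libraries.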

Additional observations from a re-analysis of the deposited data

Results flagged for a closer look

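In hearts the difference between flaming and smoldering was not the same for the 2 fuels: in a comparison added after seeing the data, 20 genes had a red oak difference lower than the peat difference (edgeR interaction contrast, adjusted p under 0.05, median -0.628 over the 87), where 2.39% of all genes were called. Ndufb8 gave -1.06 ± 0.22 (SE, adjusted p = 0.0104), with flaming against smoldering at -0.82 for red oak, and Cox7a1 gave -1.22 ± 0.29 (adjusted p = 0.0231). The count was 1 without the 7 hearts with Myl7 and 0 with detected genes as a covariate, where 22 and 17 of all genes were called, against 267. It ranged from 3 to 39 as single hearts were left out, with 3 without peat flame 1 and 39 without red oak smolder 6.

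Some libraries stood apart from their group by the size of the gap to the nearest other library, a rule that chance meets in about 1 of 20 groups. How many groups and measures were screened is not given here, so the libraries below are not shown to exceed chance. The share of counts in the 87 genes was low in red oak flame heart 2 at 6.73%. It was high in saline lung 1 at 4 h (1.15%), pine flame lung 1 at 4 h (1.28%), red oak flame lung 6 at 24 h (1.23%) and pine flame lung 6 at 24 h (1.51%), and the last 2 are lungs of few detected genes. Red oak flame heart 2, the heart of that group with Myl7 above 100 CPM, was also low for Cox7a1 at 358.9 CPM. Red oak flame heart 3 was high for Ndufa2 (42.1 CPM), Uqcr10 (171.7 CPM) and Ndufs7 (784.3 CPM), and peat flame heart 1 for Cox6a2 (245.6 CPM). For Cyc1 in lung at 4 h, pine needles smolder 4 was high at 59.39 CPM and pine smolder 1 at 55.56 CPM.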

How the results depend on the processing

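Of the counts and genes recomputed here under the alternatives, none was turned; other genes named were not followed across settings. Some heart medians did change sign. The peat flame against peat smolder median in heart (0.14) was -0.006 without atrial hearts. The red oak smolder median in heart (-0.065) was 0.083 with detected genes as a covariate. Heart against lung gave 6 genes lower with library totals or with all 30 animals, and medians of 3.28 and 3.71. Leaving out 1 replicate gave 78 to 80 higher, 2 to 4 lower and medians of 3.94 to 4.04. With the animal number as a replicate block, which pairs the 2 tissues, 79 were higher and 2 lower (median 4.05), and 0 effects differed between tissues in each of 3 comparisons; the block changed the calls of Ndufb11, Ndufa2 and Ndufaf7 and no other. Heart comparisons share no animal between groups, so no paired analysis was possible there.

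Calls over the 4 heart smokes (74) became 39 without atrial hearts and 0 with detected genes as a covariate, and 40 to 91 on leaving out single hearts. Red oak flame (54) became 0 with the covariate and 34 to 59. All genes called after red oak flame went from 1344 to 3 with the covariate. Peat smolder (20) became 36 with DESeq2, 13 with no filter, 1 without atrial hearts, 0 with the covariate and 5 to 35. All genes called (480) became 757 with DESeq2, 322 with no filter, 57 without atrial hearts and 0 with the covariate. Red oak flame against red oak smolder (43) became 1 with the covariate and 16 to 50, where all genes called went from 971 to 32 with the covariate. The fuel-by-phase count (20) became 42 with DESeq2, 12 with no filter, 1 without atrial hearts, 0 with the covariate and 3 to 39. All genes called (267) became 585 with DESeq2, 155 with no filter, 22 without atrial hearts and 17 with the covariate. Flaming against smoldering in heart was 1 with DESeq2. Red oak flame in heart minus lung (0) was 1 with the size factors of DESeq2 and 9 with DESeq2.

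In lung, smoke calls at 4 h (2) became 1 with size factors of DESeq2, 11 with 1 time alone, 5 without lungs of few detected genes, 25 with the covariate and 1 to 4 on leaving out single lungs. Those at 24 h (1) became 6 with size factors, 7 with DESeq2, 0 with 1 time alone, 12 without those lungs and 1 to 4. LPS at 4 h (2) became 7 with 1 time alone, 5 without those lungs and 1 to 2. LPS at 24 h (0) became 3 with size factors, 1 without mitochondrially encoded rows, 6 with DESeq2, 2 with no plate term, 13 without those lungs, 10 with the covariate and 0 to 7. Flaming against smoldering at 4 h (8) became 21 with 1 time alone, 22 without those lungs and 24 with the covariate. Differences among smokes (0) became 4 with DESeq2, 12 with 1 time alone, 7 without those lungs and 5 with the covariate. The cause of these moves was not tested. In heart the covariate and the removal of atrial hearts were chosen after seeing the data, as was removing few-gene lungs from heart minus lung.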
